A study of Homo sapiens with 24 samples.

Results

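The ID proteins and the E proteins are transcription factors of the helix-loop-helix family, and 7 of their genes were followed here: *ID1*, *ID2*, *ID3* and *ID4*, and the E protein genes *TCF3*, *TCF4* and *TCF12*. Membership was set by gene symbol and by no measured value, although the family was picked with earlier results of these data known. Each of the 7 had 1 row in the table, out of 25575 rows and 25161 gene symbols. Expression was measured on 24 Clariom D arrays, a whole-transcriptome microarray, in a diffuse large B-cell lymphoma (DLBCL) line, SU-DHL-4, and a Burkitt's lymphoma (BL) line, DG-75. Both lines were exposed for 72 h to DMSO, the solvent control, to 1 µM Entospletinib (Ento), an inhibitor of the kinase SYK, to 0.01 µM AZD5153 (AZD), a bivalent inhibitor of the BET bromodomain proteins, or to Ento+AZD at the same doses, with 3 replicate arrays in each of the 8 groups. No engineered allele is named for either line, and all cells were grown in RPMI medium with fetal bovine serum. Each lymphoma type is represented by 1 line, so a difference between the lines cannot be told apart from a difference between the lymphoma types or between the cultures. The replicates are described as biological, and p-values measure the spread between cultures of a line, not between patients.

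Helix-loop-helix proteins bind DNA as dimers. The E proteins, E2A from *TCF3*, E2-2 from *TCF4* and HEB from *TCF12*, carry a basic region that recognises the E-box, a short motif written CANNTG in which N is any base. The ID proteins lack that basic region, pair with E proteins and keep them off DNA, so that the balance between both families sets how much E protein is free to act. E2A drives commitment to the B-cell lineage and the expression of immunoglobulin genes in the germinal centre. *ID3* is a recurrent target of inactivating mutation in BL and *TCF3* of activating mutation, and either change frees E2A. The gene *TCF4* meant here codes for E2-2 and is not *TCF7L2*, the Wnt effector that shares the name TCF4 in older work.

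The 4 ID genes lie on different chromosomes, *ID1* at chr20:31605289-31606510, *ID2* at chr2:8682056-8684461, *ID3* at chr1:23557926-23559501 and *ID4* at chr6:19837370-19842197 in GRCh38.p14. The E protein genes are longer, *TCF3* at chr19:1609292-1652615, *TCF4* at chr18:55222185-55635957 and *TCF12* at chr15:56918090-57291310. RefSeq listed 1 start each for the ID genes and *TCF3*, 10 for *TCF4* and 5 for *TCF12*. The 250 bases upstream of the RefSeq start of each ID gene are printed below because these 4 genes were together higher in DG-75, and because the E-box is the motif to which the partners of their products bind. They run 5′ to 3′ on the strand of the gene up to the base before the start, and capitals mark each CANNTG, which reads the same on both strands. The windows are chr20:31605039-31605288 on the plus strand for *ID1*, chr2:8681806-8682055 on the plus strand for *ID2*, chr1:23559502-23559751 on the minus strand for *ID3* and chr6:19837120-19837369 on the plus strand for *ID4*.
ID1: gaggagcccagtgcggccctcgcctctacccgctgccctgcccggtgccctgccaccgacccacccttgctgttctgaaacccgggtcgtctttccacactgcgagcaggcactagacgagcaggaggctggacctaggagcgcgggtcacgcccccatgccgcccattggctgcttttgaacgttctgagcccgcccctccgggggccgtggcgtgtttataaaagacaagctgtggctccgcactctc
ID2: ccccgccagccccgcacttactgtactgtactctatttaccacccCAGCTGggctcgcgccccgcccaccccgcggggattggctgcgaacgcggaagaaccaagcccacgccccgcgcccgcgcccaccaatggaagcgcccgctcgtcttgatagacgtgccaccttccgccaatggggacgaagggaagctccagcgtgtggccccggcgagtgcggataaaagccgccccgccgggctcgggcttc
ID3: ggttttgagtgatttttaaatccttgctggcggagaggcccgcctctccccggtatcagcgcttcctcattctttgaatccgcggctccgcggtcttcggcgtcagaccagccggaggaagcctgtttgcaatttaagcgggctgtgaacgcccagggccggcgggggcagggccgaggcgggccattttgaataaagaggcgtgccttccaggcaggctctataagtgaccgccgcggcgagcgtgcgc
ID4: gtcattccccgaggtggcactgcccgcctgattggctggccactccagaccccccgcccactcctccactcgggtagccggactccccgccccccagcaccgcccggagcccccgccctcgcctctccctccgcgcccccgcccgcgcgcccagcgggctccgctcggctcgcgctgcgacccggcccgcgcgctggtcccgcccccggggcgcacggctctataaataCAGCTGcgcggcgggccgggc

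The *ID2* window held 1 E-box, which began 205 bases before the start. The *ID4* window also held 1, which began 21 bases before the start. No CANNTG was found in the windows of *ID1* and *ID3*, nor in the corresponding window of *TCF3*. Among 35116 windows of this length in the RefSeq table, 61.8% held the motif, so its presence or absence in 1 window is unremarkable. All 4 windows were rich in G and C, at 66% for *ID1*, 69.2% for *ID2*, 62% for *ID3* and 78.8% for *ID4*.

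The array values are log2 values after RMA normalization, and 1 unit is a doubling of the signal. Probe sets of different genes are not on a common scale, so groups were compared within a gene, and a log2 value set beside that of another gene is a rough guide only. No detection call was used, and a low log2 value cannot be separated from absence of the transcript. The medians of the 24 arrays lay between 4.89 and 5.14, and arrays of 1 group correlated with each other at 0.981 to 0.992 over all rows. The 5 B-cell markers *MS4A1*, *CD79A*, *CD79B*, *PAX5* and *CD22* had array values of 8.17 to 12.43 in SU-DHL-4 cells and 6.22 to 11.86 in DG-75 cells. The T-cell markers *CD2*, *CD3D*, *CD3E* and *CD3G* stayed between 1.42 and 4.72 in SU-DHL-4 and between 1.24 and 4.61 in DG-75. Markers of other absent cell types read higher, with 5.27 to 6.05 for *CSF1R*, a myeloid marker, and 6.82 to 7.50 for *COL1A2*, a stromal marker, over all 24 arrays. A log2 value up to this range is therefore not shown to lie above background, and no fold is given where a group of a member lies there.

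The largest difference among the 7 genes lay between the lines. The array signal of all 4 ID genes and *TCF4* was more than 2-fold higher in DG-75 than in SU-DHL-4 under DMSO, *TCF3* was higher in DG-75 by a smaller factor, and *TCF12* alone was higher in SU-DHL-4. The sizes for *ID1*, *ID2* and *ID4* are uncertain, since their SU-DHL-4 means lay in the range not shown to be above background. A gene was called when its Benjamini-Hochberg adjusted p over all 25575 rows was under 0.05 and its fold change above 2, and is said to have passed when it met the first condition only. By this rule limma called 5 of the 7 genes, against 7.26% of all rows, and all 7 passed, against 19.2% of all rows. All 5 called genes were higher in DG-75, as 4.13% of all rows were, and 6 of 7 passed in that direction, as 10.7% of all rows did. The 3 DMSO arrays of one line did not overlap with those of the other for any of the 7 genes, which held for 33.3% of all rows.

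*ID1* codes for an ID protein that is a classical target of bone morphogenetic protein (BMP) signalling. Its values in the DMSO arrays of SU-DHL-4 were 3.79, 3.96 and 4.86, with a mean of 4.20 ± 0.57 (SD, n = 3). In DG-75 they were 9.52, 9.18 and 9.77, with a mean of 9.49 ± 0.29 (SD, n = 3). No array of one line came near the other. The log2 difference, SU-DHL-4 minus DG-75, was -5.29 (SE 0.316, 95% interval -5.95 to -4.62, adjusted p = 4.15e-10). The SU-DHL-4 values were not shown to lie above background, being close to those of the T-cell markers, so the size of this difference is uncertain, and the same limit holds for every change of *ID1* within SU-DHL-4.

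*ID2*, whose product also binds proteins of the retinoblastoma family, was at 7.74, 6.99 and 7.43 in the DMSO arrays of SU-DHL-4 and at 9.62, 9.96 and 9.47 in those of DG-75. The lowest DG-75 array was thus well above the highest SU-DHL-4 array. The difference was -2.30 (SE 0.161, adjusted p = 4.02e-09). The SU-DHL-4 mean of 7.39 lay in the range of *COL1A2* and was not shown to lie above background. The size of this difference, and of any change of *ID2* within SU-DHL-4, is therefore uncertain.

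*ID3* is the family member tied to BL. Its values were 9.47, 9.34 and 9.22 in SU-DHL-4 cells and 10.76, 10.51 and 10.87 in DG-75 cells under DMSO. No array of one line reached the other, and the difference of -1.37 (SE 0.164, adjusted p = 4.69e-06) amounted to 2.59-fold. *ID4*, which pairs less readily with E proteins than its relatives and has been described as an antagonist of other ID proteins, was at 5.63, 5.56 and 5.90 in SU-DHL-4 and at 7.45, 7.40 and 7.56 in DG-75. Its difference was -1.77 (SE 0.220, adjusted p = 7.47e-06). The values of *ID4* were not shown to lie above background in SU-DHL-4, while those of DG-75 were near those of *COL1A2*, so the sizes of its differences and changes are uncertain.

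The 3 E protein genes did not share 1 direction. *TCF4* was at 9.87, 10.09 and 10.02 in SU-DHL-4 and at 11.38, 11.42 and 11.19 in DG-75, a difference of -1.33 (SE 0.111, adjusted p = 3.97e-08) or 2.52-fold higher in DG-75. *TCF3* was at 8.86, 8.99 and 9.11 in SU-DHL-4 and at 9.67, 9.70 and 9.40 in DG-75, a difference of -0.61 (SE 0.128, adjusted p = 0.00185) or 1.52-fold higher in DG-75. It fell short of the 2-fold minimum, and without replicate 1 of every group its adjusted p was 0.102.

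*TCF12* ran the other way. Its values were 9.30, 9.23 and 9.25 in the SU-DHL-4 arrays and 8.65, 8.68 and 8.45 in those of DG-75. The difference was 0.66 (SE 0.118, adjusted p = 0.000373), or 1.58-fold higher in SU-DHL-4, again below the 2-fold minimum. The calls of the 4 ID genes and *TCF4* were made under all 32 alternative settings tried, and *TCF12* passed in all 32.

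**Figure D1:**
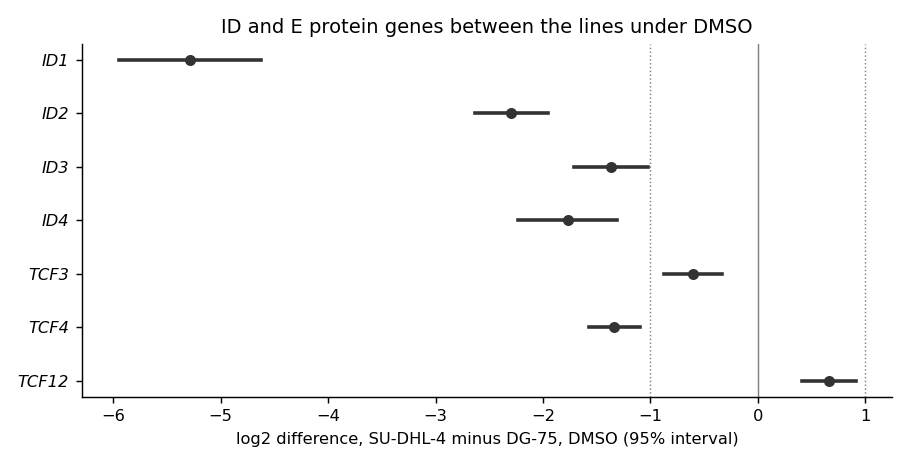
Log2 difference between the DMSO arrays of SU-DHL-4 and DG-75 (x axis, SU-DHL-4 minus DG-75) for the 7 genes, with points for the limma estimate, bars for its 95% interval and dotted lines at a 2-fold difference. The 4 ID genes and *TCF4* lie beyond the dotted line on the DG-75 side, from -5.29 for *ID1* to -1.33 for *TCF4*, *TCF3* lies between 0 and that line, and *TCF12* is the only gene to the right of 0.

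The difference between the lines was kept under each treatment. The gap between group means, SU-DHL-4 minus DG-75, ran from -5.29 under DMSO to -6.25 under Ento+AZD for *ID1*, and from -2.30 under DMSO to -2.55 under Ento for *ID2*. For *ID3* it was narrowest under DMSO at -1.37 and widest under Ento+AZD at -2.04, and for *ID4* it went from -1.77 to -2.62 in the same groups. Each ID gene thus had its narrowest gap under DMSO, and all differences in response between the lines rest on these same DMSO arrays. None of them passed. *TCF4* ran between -1.14 under Ento and -1.33 under DMSO, *TCF3* between -0.61 and -0.67, and *TCF12* between 0.56 and 0.76.

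Taking all 12 arrays of each line, 6 of the 7 genes did not overlap between the lines, which held for 9.19% of all rows. *ID1* lay between 2.72 and 4.86 in SU-DHL-4 and between 9.16 and 10.17 in DG-75. *ID3* lay between 8.75 and 9.47 in SU-DHL-4 and between 10.51 and 11.22 in DG-75. The exception was *TCF3*, with 8.42 to 9.23 for SU-DHL-4 and 9.16 to 9.70 for DG-75, so that its highest SU-DHL-4 array, from the Ento group, exceeded its lowest DG-75 array, from the Ento+AZD group.

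**Figure D2:**
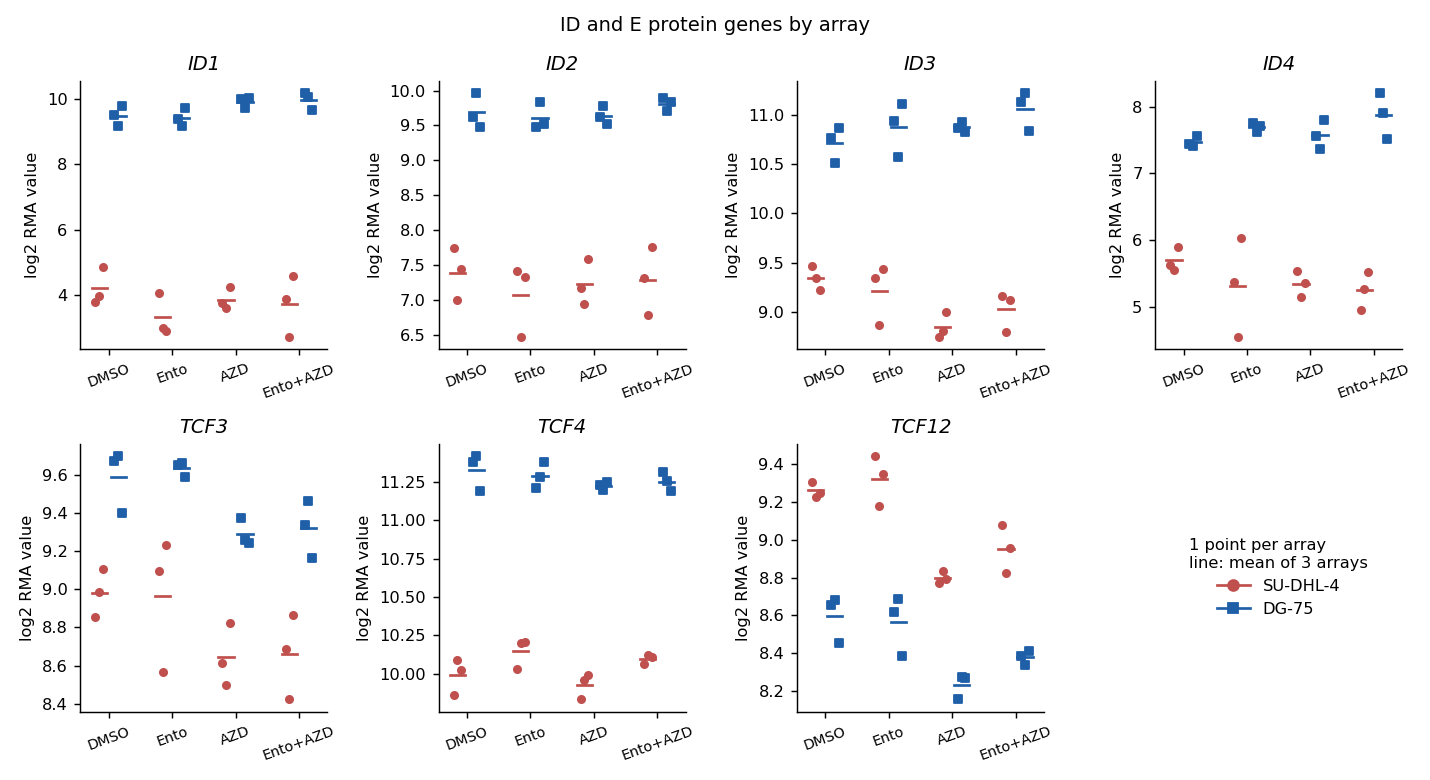
Log2 RMA value (y axis, scaled separately for each gene) of the 7 genes in every array by treatment (x axis), with red circles for SU-DHL-4, blue squares for DG-75 and short lines for the mean of 3 arrays. DG-75 lies above SU-DHL-4 in every treatment for the ID genes, *TCF4* and, by means, *TCF3*, whereas *TCF12* is higher in SU-DHL-4, with 8.77 as its lowest SU-DHL-4 and 8.69 as its highest DG-75 array.

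ID genes are transcribed in response to BMP and TGF-beta signals, which reach the nucleus through SMAD proteins, and *EGR1* couples antigen receptor signals to *ID3* in lymphocytes. Of 12 genes of this route, all measured, 4 were called between the DMSO groups and all 4 were higher in DG-75, against 4.13% of all rows, while 8 passed toward DG-75 and 1 toward SU-DHL-4, against 10.7% and 8.43% of all rows. The median difference of the list was -0.77, next to 0.01 over all rows. *SMAD1* and *SMAD9*, which carry the BMP signal, differed by -4.31 (SE 0.254, adjusted p = 3.54e-10) and by -3.90 (SE 0.200, adjusted p = 5.18e-11). *SMAD1* was at a mean of 2.94 ± 0.39 for SU-DHL-4 and 7.25 ± 0.17 for DG-75, and *SMAD9* at 4.99 ± 0.35 and 8.89 ± 0.16 (SD, n = 3 each). The other called genes were *SMAD6*, an inhibitor of the BMP route and itself one of its targets (-1.81, adjusted p = 5.01e-05), and the receptor gene *BMPR2* (-1.76, adjusted p = 1.83e-05). *SMAD5*, which also transmits BMP signals, was the 1 gene that passed toward SU-DHL-4, at 0.49 (adjusted p = 0.00937). The difference was -0.04 for *ACVR1*, 0.03 for *SMAD4* and 0.15 for *EGR1*, and none of these 3 passed. By the DMSO means, *SMAD9* was not shown to lie above background in SU-DHL-4, nor were *SMAD1*, *SMAD6*, *BMPR2*, *ACVR1* and *EGR1* in either line, which leaves the sizes of their differences uncertain. The part of these genes in the levels of the ID genes was not tested.

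**Figure D3:**
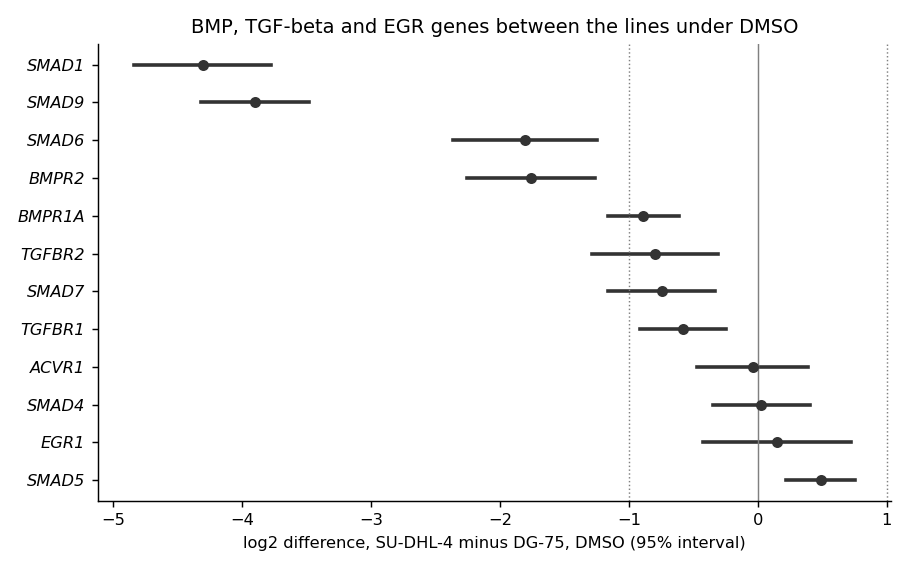
Log2 difference between the DMSO arrays of SU-DHL-4 and DG-75 (x axis, SU-DHL-4 minus DG-75) for 12 genes of the BMP, TGF-beta and EGR route, with points for the limma estimate, bars for its 95% interval and dotted lines at a 2-fold difference. *SMAD1* (-4.31), *SMAD9* (-3.90), *SMAD6* (-1.81) and *BMPR2* (-1.76) lie well to the DG-75 side, and *SMAD5* (0.49) is the only one whose interval lies wholly to the right of 0.

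Genes described as tied to E protein activity in B cells were split between the lines. Of 17 such genes, 3 were called higher in SU-DHL-4 and 2 higher in DG-75, and 6 and 3 passed in these directions, with a median difference of 0.14. Of all rows, 3.13% and 4.13% were called and 8.43% and 10.7% passed in these directions. Higher in SU-DHL-4 were *VPREB3* (2.99, SE 0.157, adjusted p = 6.8e-11), *EBF1*, which acts with E2A in early B cells (2.03, adjusted p = 2.63e-09), and *FOXO1* (1.26, adjusted p = 8.34e-07). Higher in DG-75 were *CCND3*, the cell cycle gene often mutated in BL (-1.51, adjusted p = 1.03e-07), and the chemokine receptor gene *CXCR4* (-1.37, adjusted p = 2.39e-05). Among the 7 cofactors of E proteins none was called and 3 passed: the corepressor genes *CBFA2T2* (-0.89, adjusted p = 0.000695) and *CBFA2T3* (-0.58, adjusted p = 0.0289) toward DG-75, and the coactivator gene *CREBBP* (0.35, adjusted p = 0.0489) toward SU-DHL-4. *CREBBP* passed in only 8 of 32 alternative settings, and *CBFA2T3* passed in 26 of 32, with differences from -0.84 to -0.34. Of the 4 genes for tissue-restricted partners of E proteins, *LYL1* alone passed, at 0.51 (adjusted p = 0.00923). The DMSO means of *EBF1* and *FOXO1* in DG-75, of *CBFA2T2* in SU-DHL-4 and of *CBFA2T3* and *LYL1* in both lines were not shown to lie above background, so the sizes of these differences are uncertain too.

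Of 3 genes for proteins that act on the stability of ID proteins, none was called and 1 passed toward each line. Of all rows, 3.13% were called and 8.43% passed toward SU-DHL-4, and 4.13% and 10.7% toward DG-75. *WDR48*, whose product is a cofactor of USP1, did not pass (-0.46, adjusted p = 0.179). *USP1*, a deubiquitinase that stabilises ID proteins, was at -0.90 (adjusted p = 0.0104), toward DG-75, and *FZR1*, an activator of the ubiquitin ligase that degrades them, was at 0.46 (adjusted p = 0.0245), toward SU-DHL-4, and neither *FZR1* nor *WDR48* was shown to lie above background. Of the 3 genes of the retinoblastoma family, partners of ID2, *RBL1* (-0.20) and *RBL2* (0.30) did not pass. *RB1* was called higher in SU-DHL-4 at 1.06 (adjusted p = 2.66e-06), and stood at 0.96 once replicate 2 of every group, or the DMSO array of replicate 2 of DG-75 alone, was left out. *ID2-AS1*, an antisense transcript of *ID2*, was at -0.55 with an adjusted p of 0.235 and was likewise not shown to lie above background. The strand of the probes is not in the table, and 2 further antisense transcripts, *TCF4-AS1* and *TCF4-AS2*, were not analysed here.

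Neither inhibitor nor the combination changed any of the 7 genes within a line by the rule above. limma called 0 of 7 and passed 0 of 7 in each of the 6 comparisons of a treatment with DMSO within a line. In such bulk samples a change in the share of cells that express a gene cannot be told apart from a change in each cell. At an unadjusted p under 0.05 SU-DHL-4 had 1 of the 7 genes under Ento, 3 under AZD and 1 under Ento+AZD, and DG-75 had 0 under Ento, 3 under AZD and 2 under Ento+AZD. The shares of all rows at that threshold were 8.59%, 11.5% and 14.01% for SU-DHL-4, and 2.81%, 13.8% and 16.02% for DG-75. Few rows were called at all. In SU-DHL-4 the share of all rows called was 0.0508% under Ento, 0.18% under AZD and 1.19% under Ento+AZD, and 0.0547%, 0.207% and 2.36% passed. In DG-75 the share called was 0.00391%, 0.18% and 0.833%, and 0.00391%, 0.293% and 2.39% passed. The smallest adjusted p of a member in these 6 comparisons was 0.211, for *TCF12* under AZD in SU-DHL-4.

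Ento left the E protein genes close to their DMSO level in both lines. The changes of *TCF3*, *TCF4* and *TCF12* ran from -0.02 to 0.15 in SU-DHL-4 and from -0.04 to 0.04 in DG-75, and all 6 of the 95% intervals lay between -0.35 and 0.43. *ID1* in SU-DHL-4 was at 4.05, 2.99 and 2.91 under Ento against 3.79, 3.96 and 4.86 under DMSO. The groups overlapped, and the change of -0.89 (SE 0.354, 95% interval -1.66 to -0.12, adjusted p = 0.533) did not pass. In DG-75 the Ento arrays of *ID1* were at 9.40, 9.16 and 9.73, a change of -0.06 (95% interval -0.48 to 0.35). In DG-75 *ID4* was the 1 gene whose Ento arrays did not overlap with DMSO (6.65% of all rows), at 7.75, 7.62 and 7.70 against 7.45, 7.40 and 7.56, a change of 0.22 with an adjusted p of 1.

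Of the 3 treatments, AZD had the most of the 7 genes separated from DMSO in either line, although over all rows in SU-DHL-4 more were separated under Ento+AZD (20.8%). In SU-DHL-4, 4 of the 7 genes did not overlap between AZD and DMSO (15.7% of all rows), namely *ID3*, *ID4*, *TCF3* and *TCF12*, all of them lower under AZD (12.9% of all rows). In DG-75 these were 2 of 7 (19.1% of all rows), *TCF3* and *TCF12*, again lower under AZD (14.6% of all rows). Some of these separations were narrow. In SU-DHL-4 the highest AZD and lowest DMSO arrays were at 5.54 and 5.56 for *ID4* and at 8.82 and 8.86 for *TCF3*. In DG-75 they were at 9.37 and 9.40 for *TCF3*. Over all rows the median change under AZD was -0.08 for SU-DHL-4 and -0.06 for DG-75.

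*ID3* in SU-DHL-4 was at 8.75, 8.81 and 9.0 under AZD against 9.47, 9.34 and 9.22 under DMSO. Every AZD array was below every DMSO array, yet the change of -0.49 (SE 0.162, 95% interval -0.84 to -0.14, adjusted p = 0.266) did not pass. In DG-75 the AZD arrays of *ID3* were at 10.87, 10.92 and 10.83, within or above the DMSO range, for a change of 0.16 (95% interval -0.21 to 0.54, adjusted p = 0.762). The difference between the lines in the response of *ID3* to AZD was -0.66 (95% interval -1.14 to -0.17), with an adjusted p of 0.654.

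*TCF12* had changes of like size in both lines, neither of which passed. Under AZD it was at 8.77, 8.83 and 8.79 in SU-DHL-4, all below the lowest DMSO array at 9.23, and at 8.16, 8.28 and 8.27 in DG-75, all below the lowest DMSO array at 8.45. The changes were -0.46 (SE 0.135, adjusted p = 0.211) and -0.36 (SE 0.131, adjusted p = 0.235). *TCF3* was at 8.61, 8.50 and 8.82 under AZD in SU-DHL-4 and at 9.37, 9.26 and 9.24 in DG-75, below the DMSO arrays of its line in both. Its changes were -0.34 (SE 0.152, adjusted p = 0.424) and -0.30 (SE 0.125, adjusted p = 0.313). *TCF4*, in contrast, overlapped with DMSO in both lines, with changes of -0.07 and -0.11.

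When the arrays of both lines were fitted together with 1 shared treatment effect, *TCF3* and *TCF12* fell under AZD and under Ento+AZD. Under AZD *TCF12* fell by 0.41 on the log2 scale (SE 0.082, 95% interval -0.58 to -0.24, adjusted p = 0.00694), or 1.33-fold, and *TCF3* fell by 0.32 (SE 0.085, 95% interval -0.50 to -0.14, adjusted p = 0.0342), or 1.25-fold. Under Ento+AZD *TCF3* fell by 0.30 (adjusted p = 0.0327) and *TCF12* fell by 0.26 (adjusted p = 0.04996). In these comparisons 4.66% of all rows passed under AZD and 8.49% under Ento+AZD, with 4.29% and 7.03% lower, and the median over all rows was -0.07 in both. None of the 4 values reached 2-fold, the share of rows that did being 0.254% under AZD and 0.856% under Ento+AZD. The 4 ID genes and *TCF4* did not pass in any of the 3 comparisons over both lines, and neither *TCF3* nor *TCF12* passed under Ento, where the changes were 0.01 and 0.02 and 0.00782% of all rows passed.

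The pooled falls of *TCF3* and *TCF12* were not equally firm. *TCF12* under AZD passed in 31 of 33 alternative settings, the exceptions being the fits without replicate 1 (adjusted p = 0.195) and without replicate 3 of every group (adjusted p = 0.109). *TCF3* under AZD passed in 17 of 33, and its change was -0.23 (adjusted p = 0.139) once each array was centred on its own median and -0.18 (adjusted p = 0.214) after a further quantile normalization. When the replicate number was taken as 1 term common to both lines, *TCF3* was no longer past the threshold under AZD (adjusted p = 0.102) or under Ento+AZD (adjusted p = 0.0963), and *TCF12* passed under AZD (adjusted p = 0.0113) and not under Ento+AZD (adjusted p = 0.0551). The fall of *TCF12* under Ento+AZD passed in 5 of 33 settings. With no replicate term, *TCF3* did not pass under AZD (adjusted p = 0.103) or Ento+AZD (adjusted p = 0.0958), nor did *TCF12* under Ento+AZD (adjusted p = 0.0521). After quantile normalization *TCF12* was at -0.26 under AZD (adjusted p = 0.0486), and under Ento+AZD *TCF12* was at -0.13 (adjusted p = 0.343) and *TCF3* at -0.17 (adjusted p = 0.197). With each array centred on its median these 3 changes were -0.32, -0.15 and -0.19.

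Set against the DMSO array of the same line and replicate number, *TCF3* was lower in 6 of 6 AZD arrays, by differences from -0.49 to -0.16, and in 6 of 6 Ento+AZD arrays, from -0.56 to -0.17. *TCF12* was lower in 6 of 6 arrays under AZD, from -0.53 to -0.18, and under Ento+AZD, from -0.40 to -0.04. *TCF4* was lower in 5 of 6 under AZD and in 3 of 6 under Ento+AZD. Under Ento alone *TCF3* and *TCF12* were each lower in 3 of 6. The share of all rows lower in 6 of 6 was not computed. Over both lines the median change of all rows was -0.07 under AZD and under Ento+AZD. The differences under AZD and under Ento+AZD rest on the same DMSO arrays, and same-numbered arrays did not meet the condition for pairing given below.

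**Figure D4:**
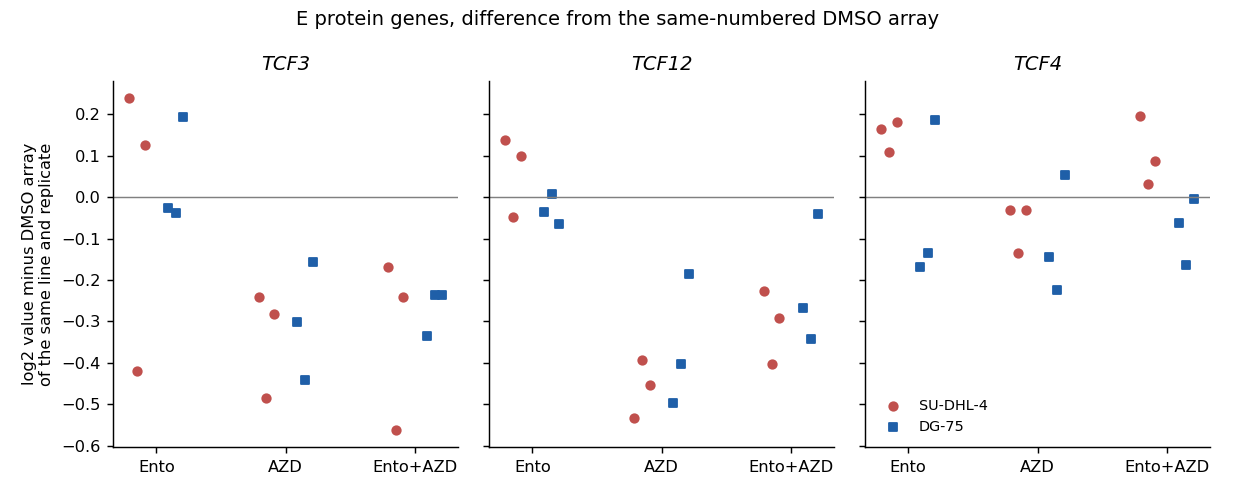
Log2 value of each treated array minus the DMSO array of the same line and replicate number (y axis) under the 3 treatments (x axis) for *TCF3*, *TCF12* and *TCF4*, with red circles for SU-DHL-4 and blue squares for DG-75. All 6 points lie below 0 under AZD and under Ento+AZD for *TCF3* and *TCF12*, while those of *TCF4* and those under Ento lie on both sides of 0.

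Under Ento+AZD within the lines, *ID3*, *ID4* and *TCF12* did not overlap with DMSO in SU-DHL-4 (20.8% of all rows) and *TCF12* did not in DG-75 (18.8% of all rows). *TCF12* was at 9.08, 8.82 and 8.96 in SU-DHL-4 cells and at 8.39, 8.34 and 8.41 in DG-75, changes of -0.31 (adjusted p = 0.328) and -0.22 (adjusted p = 0.469). The ID genes leaned in opposite directions in the lines. In SU-DHL-4 the changes of *ID1*, *ID2*, *ID3* and *ID4* were -0.48, -0.10, -0.32 and -0.45, and in DG-75 they were 0.48, 0.13, 0.35 and 0.40. None of these 8 values passed, and *ID2* in SU-DHL-4 turned to 0.03 after either rescaling of the arrays. *ID1* in DG-75 was at 10.17, 10.07 and 9.67 under Ento+AZD, and replicate 3 lay within the DMSO range. Without that array the change was 0.75 and passed, with an adjusted p of 0.0454, and it did so in 1 of 21 settings.

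The opposite signs were put to a direct test. The difference between the lines in the response to Ento+AZD was -0.96 for *ID1* (95% interval -1.90 to -0.02, adjusted p = 0.749), whose SU-DHL-4 values are not shown to lie above background, -0.67 for *ID3* (95% interval -1.16 to -0.18, adjusted p = 0.540) and -0.85 for *ID4* (95% interval -1.51 to -0.20, adjusted p = 0.589). limma called 0 of 7 genes and passed 0 of 7 for each of the 3 treatments in this test, and at an unadjusted p under 0.05 it held 0 genes with Ento, 1 with AZD and 3 with Ento+AZD, next to 4.43%, 6.16% and 6.51% of all rows. The same shares of all rows were called and passed, 0.00782%, 0% and 0.0352%.

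**Figure D5:**
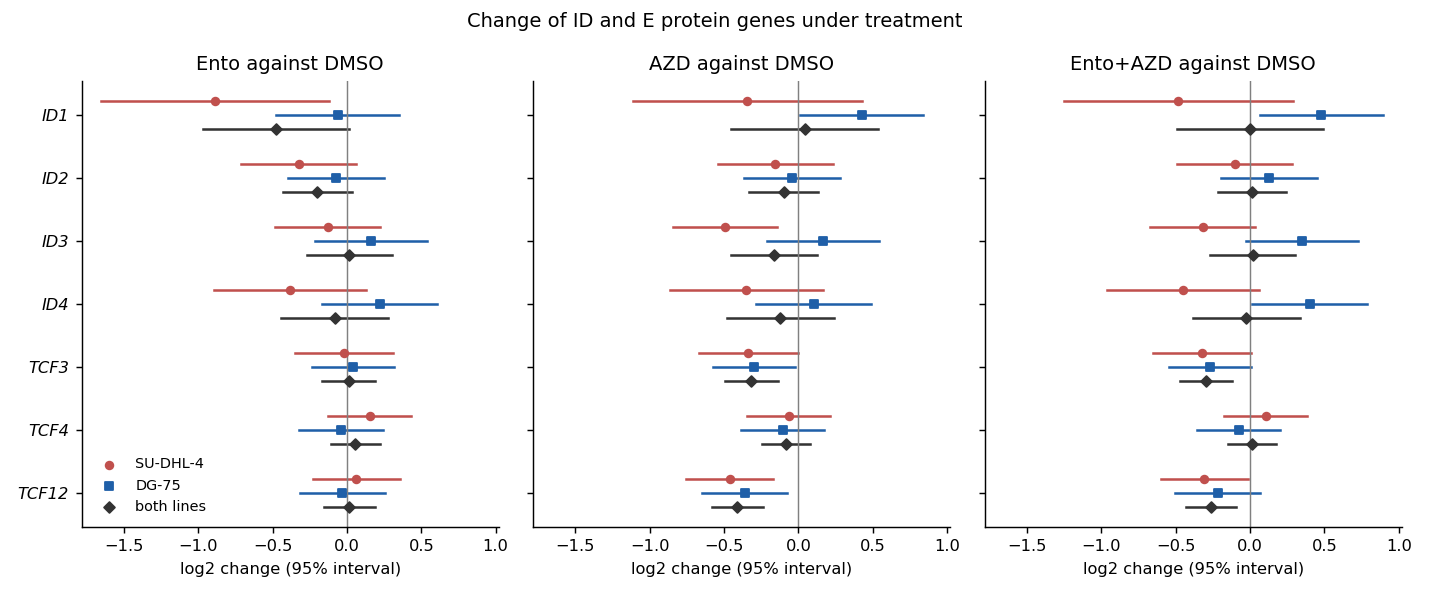
Log2 change against DMSO (x axis) of the 7 genes under Ento, AZD and Ento+AZD, with points for the limma estimate and bars for its 95% interval for SU-DHL-4 (red circles), DG-75 (blue squares) and over both lines (dark diamonds). *TCF3* and *TCF12* lie to the left of 0 in both lines under AZD and Ento+AZD, and under Ento+AZD each ID gene lies to the left of 0 in SU-DHL-4 and to the right of 0 in DG-75, although *ID2* in SU-DHL-4 turned to 0.03 when the arrays were rescaled.

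Adding the second inhibitor to the first was examined by comparing Ento+AZD with each single agent. limma called 0 of 7 and passed 0 of 7 in all 4 of these comparisons. Against Ento 0.0821% of all rows were called and 0.102% passed with SU-DHL-4 cells, and 0.657% and 1.66% with DG-75 cells. Against AZD the shares were 0.0274% and 0.0313% in SU-DHL-4 and 0% for both in DG-75. At an unadjusted p under 0.05 there was 1 gene against Ento for SU-DHL-4 and 2 for DG-75, and 0 against AZD in either line. Of all rows, 9.67% and 14.8% were at that threshold against Ento, and 7.03% and 4.03% against AZD. *TCF12* was lower with Ento+AZD than with Ento in SU-DHL-4 without overlap (12.8% of all rows), by -0.37 (adjusted p = 0.356). *TCF3* was lower without overlap in DG-75 (18.4% of all rows), by -0.31 (adjusted p = 0.267), and *ID1* was at 0.54 there (adjusted p = 0.193). Against AZD alone, *TCF12* was somewhat higher with the combination, at 0.15 for SU-DHL-4 and 0.14 for DG-75, without overlap in the latter (7.55% of all rows). *TCF4* in SU-DHL-4 was at 0.17 without overlap (9.18% of all rows), and neither gene passed.

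A combined change that differed from both single changes added together was not detectable for any of the 7 genes. limma called and passed 0 of 7 in both lines, with 0 genes at an unadjusted p under 0.05 (4.99% and 2.63% of all rows), and 0% of all rows were called or passed. The largest departure was 0.75 for *ID1* in SU-DHL-4 (95% interval -0.34 to 1.84), and the intervals for *TCF3* were -0.44 to 0.50 for SU-DHL-4 and -0.40 to 0.38 for DG-75.

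Among the 17 genes tied to E protein activity, 1 was called under Ento+AZD in each line, against 1.19% of all rows for SU-DHL-4 and 0.833% for DG-75. *PTPN6*, the phosphatase SHP-1 that dampens B-cell receptor signals, was called lower under Ento+AZD in SU-DHL-4, where it was at 5.97, 6.53 and 5.44 under DMSO and at 4.98, 4.78 and 4.44 with both inhibitors. Its change was -1.25 (SE 0.201, adjusted p = 0.00911), and the groups did not overlap. *VPREB3* was called higher under Ento+AZD in DG-75, from 7.99, 6.95 and 8.38 to 9.52, 8.38 and 9.22, a change of 1.27 (SE 0.186, adjusted p = 0.0162). Replicate 2 was lowest in both groups of *VPREB3*, and the highest DMSO array equalled the lowest treated array to 2 decimals. Both calls rested on the replicate term: without it the adjusted p was 0.144 for *PTPN6* and 0.120 for *VPREB3*, and they were made in 16 and 14 of 21 settings. The *PTPN6* values lie in a range not shown to be above background. No other gene of the list was called in the 6 comparisons with DMSO.

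Over both lines, no gene of the pathway lists was called and several passed. Of all rows, 0.254% were called and 4.66% passed under AZD, and 0.856% and 8.49% under Ento+AZD. Whether the lists passed more often than all rows was not tested. *USP1* fell by 0.62 under AZD (adjusted p = 0.0275) and fell by 0.80 under Ento+AZD (adjusted p = 0.00256). *RBL1*, coding for the retinoblastoma relative p107, fell by 0.60 (adjusted p = 0.0087) and fell by 0.77 (adjusted p = 0.000455). *IRF8* rose by 0.30 (adjusted p = 0.0482) and by 0.38 (adjusted p = 0.00735), while *POU2AF1*, the B-cell coactivator OCA-B, fell by 0.37 under AZD (adjusted p = 0.0435). Under Ento+AZD *VPREB3* rose by 0.85 (adjusted p = 0.00151) and *CCND3* fell by 0.39 (adjusted p = 0.00992). The 12 genes of the BMP, TGF-beta and EGR route, the 7 cofactors and the 4 tissue-restricted partners did not pass in any comparison with DMSO, within or over the lines. Under AZD, *IRF8*, *POU2AF1* and *USP1* passed in 8, 11 and 22 of 33 settings.

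The 7 genes were last compared for how their values moved together across the arrays, after the mean of each line and replicate number was removed. These correlations are descriptions over arrays that share the same 4 treatments. *TCF3* and *TCF12* ran most closely together among the 21 pairs, with r = 0.83 over 24 arrays, 0.87 over the SU-DHL-4 arrays and 0.76 over the DG-75 arrays. *ID3* ran with *TCF3* in SU-DHL-4 (r = 0.86) and not in DG-75 (r = -0.32), and likewise with *TCF12* (0.86 and -0.55). *ID1* and *TCF12* were at -0.04 over the SU-DHL-4 arrays and -0.85 over those of DG-75, and *ID1* and *ID3* at 0.05 and 0.74. The differences between the lines in these correlations were not tested. Among 12608 rows at or above the median level, those most like *ID3* included *RPS6KA1* (r = 0.83) and *ZNF592* (0.80), and those most like *TCF3* included *RFWD3* (0.93) and *POLH* (0.93).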

How the data were processed

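Total RNA of the 24 cultures was hybridised to Clariom D arrays. The authors deposited 1 table of log2 values, which their methods describe as RMA normalized with limma, with probes mapped to genes through affycoretools. The version of the annotation and the genome build are not given in the sources used here. RMA subtracts background, brings the arrays to a common distribution and condenses the probe set of each transcript, which compresses folds at low signal and does not separate isoforms.

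From these values differential expression was computed on all 25575 rows with limma 3.58.1 under R 4.3.3. The 12 arrays of each line were fitted with treatment and replicate number. Comparisons between lines used all 24 arrays in 1 model with replicate nested in line, and comparisons over both lines used treatment, line and replicate number within line. The study's model also holds a batch whose meaning is not stated, and the replicate number stood in for it. P-values were Benjamini-Hochberg adjusted over all rows, and calls needed an adjusted p under 0.05 with a fold above 2. The scripts were tested on simulated data. The number of arrays limits the precision, and intervals are 95% intervals.

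The text names all 7 members, list genes that were called, up to 4 further list genes per list that passed, with the largest change, and the 3 rows most like *ID3* and *TCF3*. *ACVR1*, *SMAD4*, *EGR1*, *ID2-AS1* and the changes without a call of genes called elsewhere fall outside this rule. Some genes that the rule would name are not reported here. Members and lists were chosen with earlier results of these data known. Alternatives were quantile normalization, median centring, leaving out rows under the median level, a trended robust prior, no replicate term, 1 fit of all arrays, no fold minimum and leaving out each array or replicate. A replicate number common to both lines was added after seeing the data. Sequences came from RefSeq (GRCh38.p14), in which all 7 genes matched. 0 columns were left without a sample.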

Additional observations from a re-analysis of the deposited data

How the results depend on the processing

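For the 5 genes called between the DMSO groups, the calls were made under all alternatives run, and no called value changed sign. With no fold change minimum, the count of members called rose from 0 to 2 for AZD against DMSO over both lines and from 0 to 2 for Ento+AZD against DMSO over both lines, namely *TCF3* and *TCF12*. Between the DMSO groups that count went from 5 to 7 without the minimum, and in the other comparisons it stayed at 0 in all settings. Among 3353 recomputed changes of members, 182 had the opposite sign of the main value, and 0 of these had an adjusted p under 0.05. Centring each array on its median moved the median change of all rows in SU-DHL-4 by 0.12 under Ento, 0.12 under AZD and 0.13 with both, and over both lines by 0.11 with both. Same-numbered arrays did not meet the condition for pairing, which asks for every pair over 0.1: their deviations from the group means correlated at a median of 0.150 within SU-DHL-4 (12 of 18 pairs over 0.1), 0.040 within DG-75 (7 of 18) and 0.004 between the lines. Arrays of different numbers were at -0.069 (1 of 36 pairs over 0.1), -0.014 (11 of 36) and 0.005, so that numbers and deviations ran together in SU-DHL-4, which is a hint from the data and not from the design. Without the replicate block, 5 members were still called between the DMSO groups and 0 in the other comparisons, while *TCF3* over both lines no longer passed under AZD (adjusted p = 0.103) or Ento+AZD (adjusted p = 0.0958), nor did *TCF12* under Ento+AZD (adjusted p = 0.0521). Each member had 1 row, so that the planned use of another row could not be run.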
